A study of Mus musculus with 16 samples.

Results

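The 5 features described here are the mature microRNAs (miRNAs) mmu-miR-126a-3p, mmu-miR-126a-5p, mmu-miR-143-3p, mmu-miR-145a-5p and mmu-miR-145a-3p, 5 of 18488 small non-coding RNA features counted in mouse prefrontal cortex. They were chosen by name, as miRNAs of the blood vessel wall, and each name matched 1 row. Libraries came from 8 PS19+/- mice and 8 wild-type (WT) littermates, all about 9.6 months old, on a mixed B6;C3 background, with males and females in equal number per group. PS19 mice are heterozygous for a transgene encoding human tau (MAPT) with the P301S change, driven by the murine prion protein promoter, which is not specific to vascular cells. The mice were perfused with buffered saline before the cortex was taken, which washes blood out of the vessels, and RNA was extracted from whole tissue. In such bulk samples, fewer vascular cells and less miRNA per vascular cell cannot be told apart. The libraries held 13187096 to 23058568 reads on the listed features, and miRNAs took 15.0% to 32.6% of them. The library codes of all 8 PS19 mice and of 2 WT mice start with G, those of 4 WT mice with F and those of 2 WT mice with A. The labels do not say what the letter stands for, so genotype and letter can be compared only through the 2 WT mice with G.

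A miRNA is cut from a hairpin precursor into a duplex whose arms are named 5p and 3p, and a loaded arm lowers the output of mRNAs that match its seed, bases 2 to 8. miR-126 is the best known miRNA of endothelial cells, the lining of blood vessels, where it is produced from within the gene Egfl7 and acts in vessel integrity and in the response to vascular endothelial growth factor. miR-143 and miR-145 are made from neighbouring hairpins and are known for their role in the contractile state of vascular smooth muscle, and they mark mural cells, the smooth muscle cells and pericytes around the endothelium. In cortex these cells are a small part of the tissue, beside neurons and glia.

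The sequence of miR-126a-3p is shown because it is the endothelial miRNA of the set, with its seed in capitals, followed by its hairpin with the 3p arm in capitals. Both are from RefSeq (GRCm38.p6), which here held 1679 mature mouse miRNA sequences and matched 1 of the 5 members.
mmu-miR-126a-3p: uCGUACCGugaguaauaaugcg
Mir126a hairpin: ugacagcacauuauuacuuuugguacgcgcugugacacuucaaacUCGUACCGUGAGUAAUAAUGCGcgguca

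The mature 3p arm has 22 bases, at chr2:26591402-26591423 on the plus strand, and fills positions 46 to 67 of the 73-base hairpin at chr2:26591357-26591429. The hairpin lies inside Egfl7 (chr2:26580014-26593120, plus strand), a gene for a factor secreted by endothelial cells. It is intronic in 8 of the 9 annotated Egfl7 transcripts that span it. Its seed occurs in 0 other mature sequences of the table, so no other listed mouse miRNA would share its seed matches. On the opposite strand, the 58-base hairpin of Mir126b is the exact reverse complement of a stretch of the miR-126a hairpin. Rows for miR-126b were not analysed here.

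The 5 members spanned a wide range of abundance in the cortex. Levels are given as normalised counts, the reads of a feature in a library divided by that library's size factor. They are not scaled by length, and counts of different miRNAs also depend on how well each is ligated and amplified. By mean over the 16 libraries, miR-143-3p ranked number 30 of 1241 mature miRNA rows, miR-126a-3p number 37, miR-145a-5p number 143, miR-126a-5p number 271 and miR-145a-3p number 322. This order of the 5 held within each of the 16 libraries. The closest neighbours in it were miR-143-3p and miR-126a-3p, whose ratio within a library ran from 1.11 to 2.80, and miR-126a-5p and miR-145a-3p, whose ratio ran from 1.19 to 4.88. Of all miRNA reads, miR-143-3p took 0.523% and miR-126a-3p 0.313%. Markers of the main cortical cells were present at very unequal levels. Of the 6 neuron rows, miR-128-3p was 466399 ± 155254 normalised counts in WT and 506408 ± 246007 in PS19 mice (SD, n = 8 per group), above every member. miR-9-5p, which averaged 156881 over the 16 libraries, was also above every member. miR-124-3p averaged 11714, below miR-143-3p and miR-126a-3p, and miR-9-3p, miR-138-5p and miR-137-3p averaged 3151, 1048 and 49.8. Of the 3 oligodendrocyte rows, miR-219a-2-3p was 25800 ± 9568 in WT and 35230 ± 14950 in PS19 mice, whereas miR-338-3p and miR-219a-5p averaged 66.2 and 4.28.

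The main comparison asked whether the vascular miRNAs differ between mice with and without tau pathology. Across all features, limma on log2(normalised count + 1) called 0 of 6024 tested features (0%) at an adjusted p below 0.05, and the lowest adjusted p was 0.409. On recovered reads, DESeq2 called 15 and edgeR called 0. At an unadjusted p below 0.05, the threshold the study used, limma listed 241 features (4.0%), 129 of them lower in PS19 mice (2.14% of those tested) and 112 higher (1.86%). All 5 members were tested, and 0 of 5 passed either threshold in this fit. Their log2 differences, PS19 minus WT, lay between -0.44 and -0.07, and the middle value was -0.37. The median was -0.13 over the 521 mature miRNA rows tested, 66.4% of which were below 0, and -0.02 over all tested features. The 5 members thus all sat on the lower side in PS19 mice, with miR-126a-3p turning to +0.04 when size factors were recomputed from mature miRNAs. Of the 241 features, 53.5% were lower in PS19 mice. Among the features that each other fit listed at this threshold, the share was 41.5% of 183 with scaling to the library total, 38.2% of 123 with scaling to the miRNA total, 21.8% of 147 with miRNA size factors and 25.8% of 124 with the library letter as a term.

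**Figure D1:**
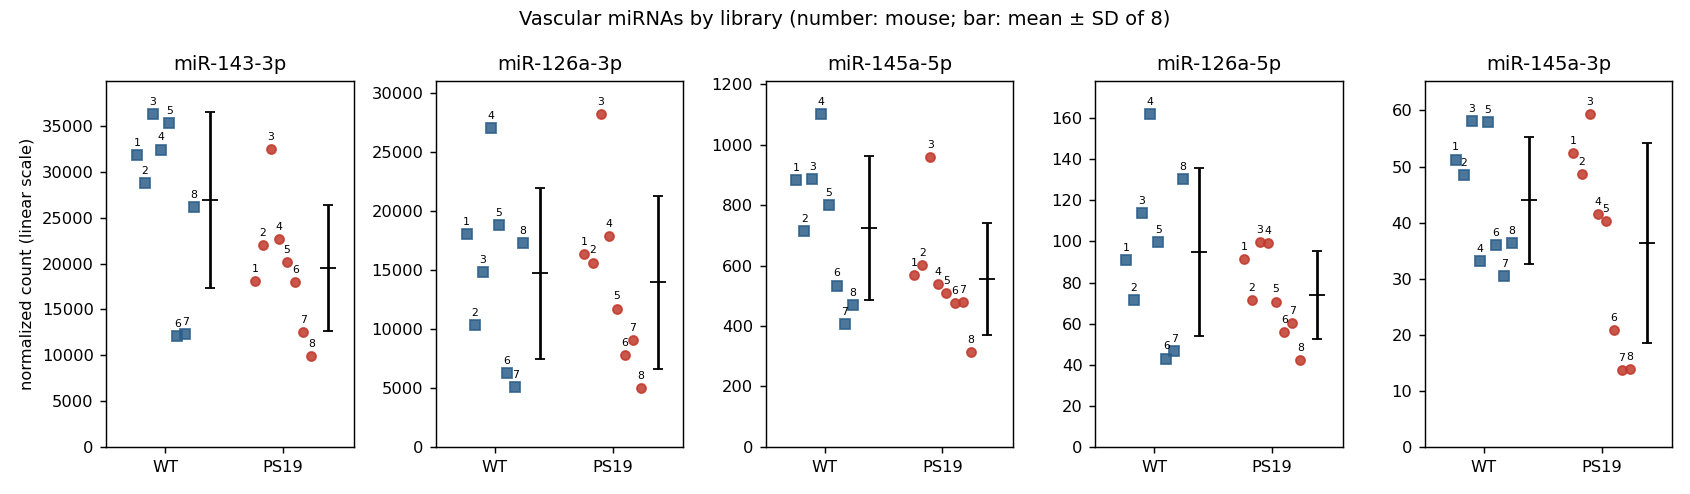
Normalised counts (linear y axis from 0, a separate axis per miRNA) of the 5 vascular miRNAs in each library of WT (blue squares) and PS19 (red circles) mice; small numbers name the mouse and black bars are mean ± SD of 8. WT and PS19 values overlap for every miRNA, and for the 3 most abundant, PS19 mouse 8 is the lowest of its group and WT mouse 7 the lowest or next to lowest.

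miR-143-3p, the most abundant mural miRNA, had the lowest of the 5 log2 differences in limma on the deposited scaling, though not in every alternative. It ranged from 12127 to 36305 normalised counts in WT mice with a median of 30345, and from 9918 to 32468 in PS19 mice with a median of 19133. The means were 26937 ± 9634 and 19485 ± 6867 (SD, n = 8 per group). The groups overlapped. Of the PS19 values, 7 of 8 lay below the WT median, but WT mice 6 and 7, at 12127 and 12368, lay below 7 of the 8 PS19 values. The log2 difference in limma was -0.44 with an SE of 0.27 and a 95% confidence interval from -1.0 to 0.13 (unadjusted p = 0.123, adjusted p = 0.9998). An exact permutation test over the 16 libraries gave p = 0.163 (two-sided, n = 8 per group). Without WT mouse 6 the limma difference was -0.59 (unadjusted p = 0.0352, adjusted p = 0.983), and without WT mouse 7 it was -0.58 (unadjusted p = 0.0358, adjusted p = 0.937). Without PS19 mouse 8 the difference was -0.31 (limma, unadjusted p = 0.255), and without PS19 mouse 7 it was -0.36 (unadjusted p = 0.218). With 1 library left out at a time, the unadjusted limma p was at least 0.05 in 14 of 16 fits.

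miR-145a-5p, the more abundant arm of miR-145a, ranged from 407 to 1101 normalised counts in WT mice with a median of 758, and from 314 to 961 in PS19 mice with a median of 525. PS19 mouse 3, at 961, stood well above the other 7 PS19 mice, which reached at most 601. With the miRNA size factors described below it did not stand apart, at 659.8 beside 674.1 in mouse 7 and 650.1 in mouse 2. Again 7 of 8 PS19 values were below the WT median, and the groups overlapped. The means were 724.9 ± 239 and 556 ± 185 (SD, n = 8 per group). In limma the log2 difference was -0.37 with an SE of 0.24 and an interval from -0.87 to 0.14 (unadjusted p = 0.143, adjusted p = 0.9998).

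miR-145a-3p, the less abundant arm, rested on 19 to 68 reads per library. It ranged from 30.4 to 58.2 normalised counts in WT mice with a median of 42.4, and from 13.7 to 59.3 in PS19 mice with a median of 40.9. PS19 mice 6, 7 and 8, at 20.9, 13.7 and 13.9, were below the lowest WT mouse, and the other 5 PS19 mice lay within or just above the WT range. On the scale of miRNA size factors, mice 6 and 8, at 27.8 and 27.5, were level with the lowest WT mouse at 27.4, and mouse 7, at 19.2, stayed below it. The medians were thus close while the log2 difference was -0.41 with an SE of 0.31 and an interval from -1.05 to 0.22 (limma, unadjusted p = 0.192, adjusted p = 0.9998).

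miR-126a-3p, the endothelial miRNA, showed the smallest difference of the 5 in limma on the deposited scaling, though not with the library letter as a term. It ranged from 5065 to 27038 normalised counts in WT mice with a median of 16061, and from 4974 to 28205 in PS19 mice with a median of 13686. The 2 ranges were nearly the same, and the means were 14715 ± 7273 and 13956 ± 7317 (SD, n = 8 per group). The log2 difference was -0.07 with an SE of 0.35 and an interval from -0.80 to 0.67 (limma, unadjusted p = 0.850, adjusted p = 0.9998). The interval is wide in both directions, and the sign turned with miRNA size factors and when any of 5 single libraries was left out.

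miR-126a-5p, the other arm of the same hairpin, rested on 43 to 161 reads per library. It ranged from 43.0 to 162 normalised counts in WT mice with a median of 95.4, and from 42.4 to 99.8 in PS19 mice with a median of 71.1. The WT mice spread further, up to 162 in mouse 4 and 131 in mouse 8, whereas the PS19 mice reached at most 99.8. The log2 difference was -0.28 with an SE of 0.28 and an interval from -0.86 to 0.30 (limma, unadjusted p = 0.327, adjusted p = 0.9998). It was -0.15 without WT mouse 4 and -0.42 without WT mouse 6.

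The other products of the 3 hairpins were lower in abundance than the leading arms. The precursor rows mmu-mir-126a, mmu-mir-143 and mmu-mir-145a averaged 140, 66.1 and 67.0 normalised counts over the 16 libraries, and the second arm of miR-143, miR-143-5p, averaged 12.3. Their log2 differences in limma were 0.00 (SE 0.39) for mir-126a, -0.37 (SE 0.28) for mir-143, -0.09 (SE 0.31) for mir-145a and -0.40 (SE 0.42) for miR-143-5p, with unadjusted p of 0.991, 0.201, 0.769 and 0.353. The mir-126a value turned above 0 under 5 other scalings or tests, up to 0.11, and that of mir-145a was 0.02 with miRNA size factors. With the library letter as a term miR-143-5p was at -1.33 (SE 0.63, limma, unadjusted p = 0.0485, adjusted p = 0.9999). It ran from -0.63 without PS19 mouse 3 to -0.22 without PS19 mouse 8 when single libraries were left out. The paralog miR-145b reached at most 4 reads in a library and its precursor row at most 1, so neither was tested.

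For 4 of the 5 members, the spread within each genotype was smaller once the miRNA content of a library was taken into account. A size factor computed from the 258 mature miRNA rows with a mean of at least 100, 3 of the members among them, ranged from -0.98 to 0.70 on the log2 scale relative to the deposited scaling. It was lowest in PS19 mouse 8 (-0.98), WT mouse 7 (-0.91), WT mouse 6 (-0.64), PS19 mouse 7 (-0.49) and PS19 mouse 6 (-0.41), which also held the 5 lowest values of miR-126a-3p. The groups averaged -0.08 ± 0.57 in PS19 and 0.03 ± 0.53 in WT mice, which did not differ beyond this spread (exact permutation p = 0.683, n = 8 per group). On this scale the coefficient of variation of miR-143-3p fell from 35.8% to 16.03% in WT and from 35.2% to 21.8% in PS19 mice. That of miR-126a-3p fell from 49.4% to 36.1% and from 52.4% to 25.7%. That of miR-145a-5p fell from 33.0% to 21.8% and from 33.2% to 20.6%, and that of miR-126a-5p from 43.2% to 31.1% and from 28.7% to 12.3%. The exception was miR-145a-3p, at 25.6% and 26.0% in WT mice on the 2 scales and 49.2% and 31.2% in PS19 mice. A fall was not particular to the members, and other rows moved in both directions. For miR-9-5p the coefficient fell from 40.1% to 22.8% in WT and from 41.1% to 9.0% in PS19 mice. For miR-486a-5p it rose from 22.6% to 37.4% in WT and from 28.9% to 50.3% in PS19 mice. The median log2 difference of all tested features moved from -0.02 to 0.09 on this scale. The differences became -0.33 (SE 0.19) for miR-143-3p, -0.26 (SE 0.20) for miR-145a-5p, -0.31 (SE 0.25) for miR-145a-3p, -0.17 (SE 0.22) for miR-126a-5p and 0.04 (SE 0.22) for miR-126a-3p, and 0 of 5 passed either threshold in limma. At the unadjusted threshold this fit listed 147 of all 6024 tested features. As a share of a library's miRNA reads, miR-143-3p was 0.585% ± 0.115 in WT and 0.453% ± 0.0998 in PS19 mice, and miR-126a-3p was 0.316% ± 0.122 and 0.305% ± 0.0811 (SD, n = 8 per group).

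With the library code letter as a term, the difference rests on the 2 WT mice with the letter G. The log2 differences were then -0.73 (SE 0.43) for miR-143-3p, -0.73 (SE 0.39) for miR-145a-5p, -0.33 (SE 0.51) for miR-145a-3p, -0.59 (SE 0.42) for miR-126a-5p and -0.44 (SE 0.56) for miR-126a-3p. The unadjusted p in limma ran from 0.0764 for miR-145a-5p to 0.532 for miR-145a-3p.

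**Figure D2:**
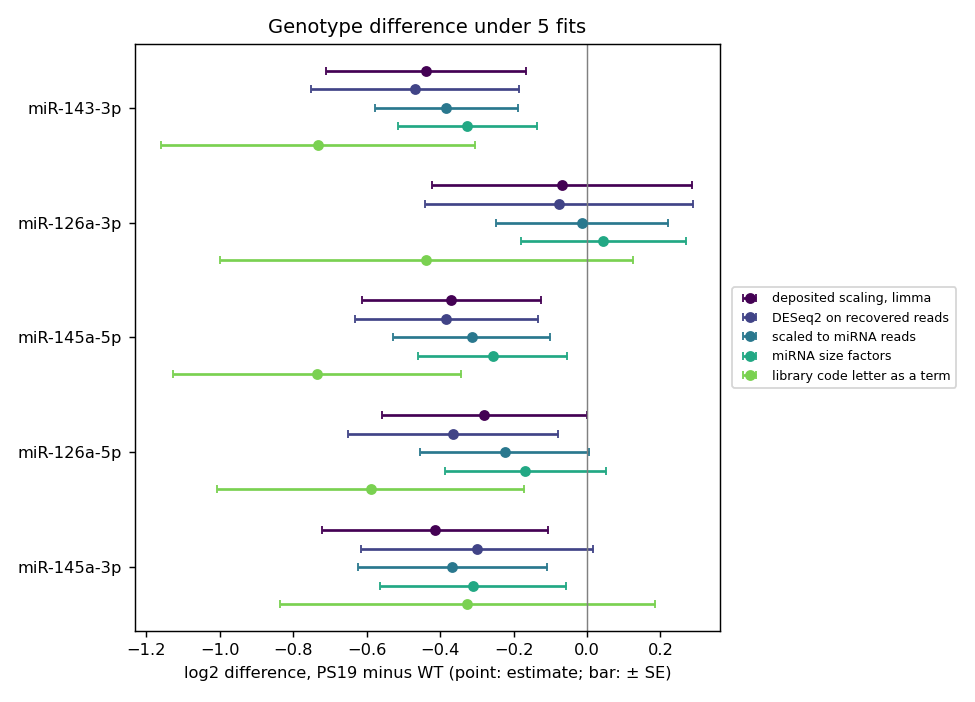
Log2 difference, PS19 minus WT (x axis), of each vascular miRNA under 5 fits: limma on the deposited scaling, DESeq2 on recovered reads, limma on reads scaled to the miRNA total, limma with miRNA size factors, and limma with the library code letter as a term; points are estimates and bars ± SE. The estimates lie below 0 except that of miR-126a-3p with miRNA size factors (0.04), and those with the letter term have the widest bars.

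Ratios within a library do not depend on its scaling, so 4 were compared between genotypes, each with a two-sided exact permutation test. The ratio of the mural miR-143-3p to the endothelial miR-126a-3p ran from 1.201 to 2.80 in WT mice with a median of 1.90, and from 1.11 to 2.32 in PS19 mice with a median of 1.39. Of the PS19 ratios, 6 of 8 were below the WT median, and WT mouse 4, at 1.201, lay among the low PS19 values. The log2 ratio was 0.95 ± 0.40 in WT and 0.58 ± 0.38 in PS19 mice, a difference of -0.37 (SD, n = 8 per group; exact permutation p = 0.0810, adjusted p over the 4 ratios = 0.324). The exact p was 0.0261 without WT mouse 4 and 0.0315 without PS19 mouse 6, with adjusted p of 0.104 and 0.126. Among libraries with the letter G the difference was -0.29 (8 PS19 and 2 WT, exact permutation p = 0.511).

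The ratio of the 3p to the 5p arm of miR-126a ran from 109 to 198 in WT mice with a median of 145, and from 117 to 283 in PS19 mice with a median of 172. Of the PS19 ratios, 6 of 8 were above the WT median, and mice 2 and 3, at 219 and 283, lay above the highest WT mouse. The log2 ratio was 7.22 ± 0.29 in WT and 7.44 ± 0.39 in PS19 mice, and the difference of 0.21 was smaller than the spread within either group (n = 8 per group, exact permutation p = 0.238, adjusted p = 0.477). It was 0.11 without PS19 mouse 3 and 0.29 without PS19 mouse 8, with an exact permutation p of 0.461 and 0.0956 (adjusted p = 0.804 and 0.191).

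For miR-145a the ratio of the 5p to the 3p arm ran from 12.9 to 33.2 in WT mice with a median of 14.8, and from 10.9 to 35.1 in PS19 mice with a median of 14.6. In WT mice, mouse 4 at 33.2 stood apart from the other 7, which reached at most 17.2. In PS19 mice the ratio was 22.8 in mouse 6, 35.1 in mouse 7 and 22.6 in mouse 8, the mice in which the 3p arm was low, and 10.9 to 16.2 in the other 5. The log2 ratios were 4.01 ± 0.44 and 4.07 ± 0.59 (SD, n = 8 per group), with an exact permutation p of 0.804 (adjusted p = 0.804). The difference of 0.06 turned to -0.39 among libraries with the letter G.

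Mir143 and Mir145a lie on chromosome 18 on the minus strand, 1301 bases apart in GENCODE M21 (GRCm38), and come from neighbouring hairpins. The ratio of miR-143-3p to miR-145a-5p ran from 22.7 to 55.5 in WT mice with a median of 38.2, and from 26.0 to 42.0 in PS19 mice with a median of 35.2. WT mice 6 and 8 held the lowest and highest ratios of all 16. The log2 ratio was 5.18 ± 0.40 in WT and 5.11 ± 0.22 in PS19 mice, a difference of -0.07 (SD, n = 8 per group; exact permutation p = 0.681, adjusted p = 0.804).

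**Figure D3:**
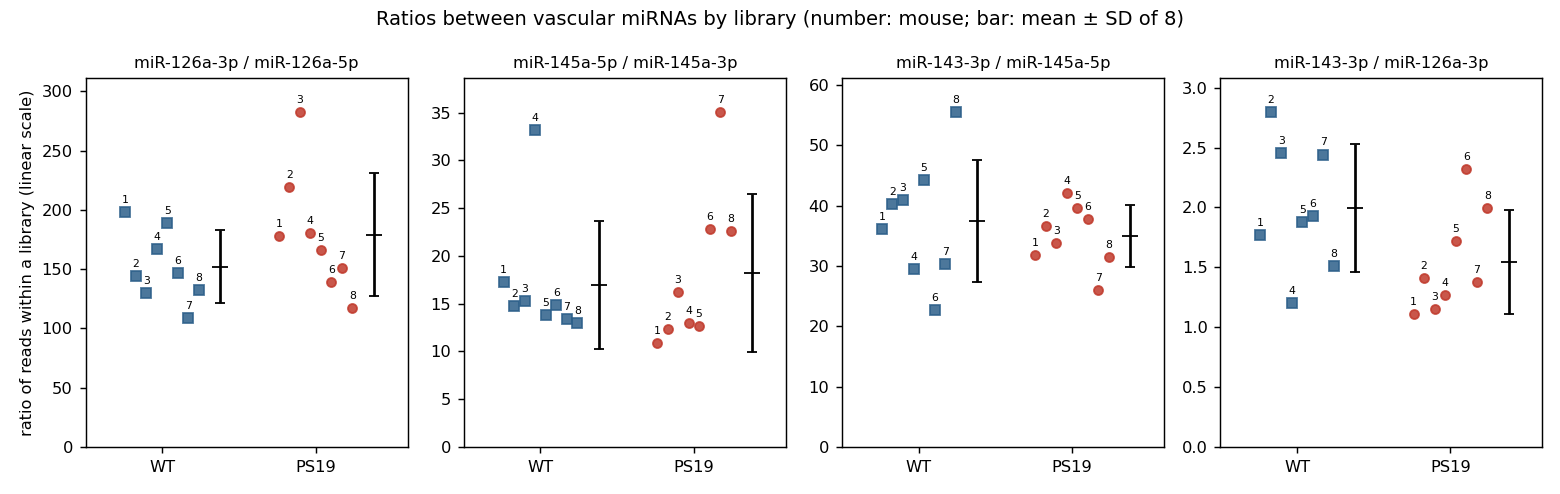
Ratio of reads of 2 vascular miRNAs within each library (linear y axis from 0, a separate axis per ratio) for WT (blue squares) and PS19 (red circles) mice; small numbers name the mouse and black bars are mean ± SD of 8. The groups overlap in all 4 ratios, and 6 of 8 PS19 mice lie below the WT median of 1.90 for miR-143-3p to miR-126a-3p.

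Across the 16 libraries the members varied together on the deposited scaling, where 10 of 10 pairs had an adjusted permutation p below 0.05 for Pearson r, and much less so with miRNA size factors, where 2 of 10 did. Other miRNAs did so too: the median r with 255 other abundant mature rows was 0.69 for miR-143-3p and 0.71 for miR-126a-3p on the deposited scaling. All share the depth and the miRNA content of their library, whose part in these relations was not tested. In all, 20 relations were computed, 10 pairs on each of 2 scales, with permutation p-values (100000 draws) adjusted over the 20. The arms of miR-126a gave Pearson r = 0.91 (permutation p = 2e-05, adjusted 0.000300) and Spearman rho = 0.87 (permutation p = 4e-05, adjusted 0.000500), and r = 0.87 without the 2 libraries farthest from the median of miR-126a-3p. With miRNA size factors r was 0.57 (permutation p = 0.0195, adjusted 0.0366) and rho 0.43 (permutation p = 0.0996, adjusted 0.181), and r was 0.54 without the 2 farthest libraries. Within genotypes on that scale r was 0.80 in WT and 0.09 in PS19 mice, whereas on the deposited scaling it was 0.95 and 0.96.

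miR-143-3p and miR-145a-5p, from neighbouring hairpins, gave r = 0.86 (permutation p = 3e-05, adjusted 0.000300) and rho = 0.83 (permutation p = 0.00012, adjusted 0.000800), and r = 0.85 without the 2 farthest libraries. With miRNA size factors r was 0.59 (permutation p = 0.0201, adjusted 0.0366) and rho 0.32 (permutation p = 0.232, adjusted 0.331). There r fell to 0.16 without the 2 libraries farthest from the median of miR-143-3p, so on that scale the relation rests on those libraries, and r was 0.81 within PS19 and 0.0074 within WT mice. The endothelial miR-126a-3p and the mural miR-143-3p gave r = 0.84 (permutation p = 7e-05, adjusted 0.000350) and rho = 0.81 (permutation p = 0.00029, adjusted 0.00145), and r = 0.75 without the 2 farthest libraries. With miRNA size factors r was 0.38 (permutation p = 0.153, adjusted 0.218) and rho 0.26 (permutation p = 0.323, adjusted 0.431), and r was 0.33 without the 2 farthest libraries. Of the 10 pairs, the lowest r on the deposited scaling was 0.55 between miR-126a-5p and miR-145a-3p, the 2 least abundant members. With miRNA size factors the same pair was at -0.18 and miR-126a-3p with miR-145a-3p at -0.06.

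**Figure D4:**
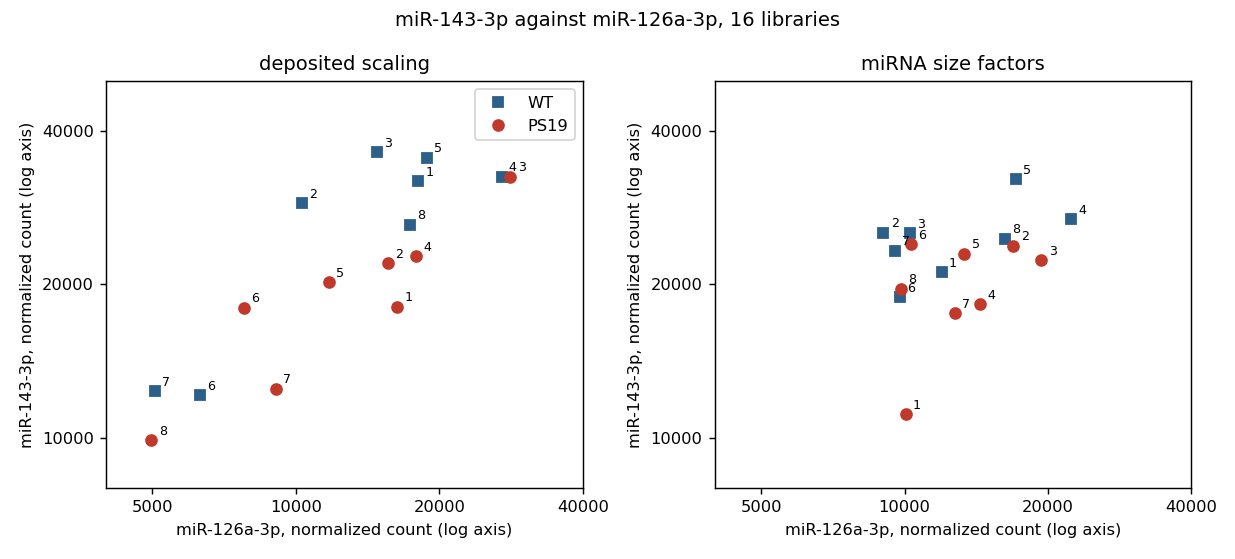
Normalised count of miR-143-3p (y, log axis) against miR-126a-3p (x, log axis) in 8 WT (blue squares) and 8 PS19 (red circles) libraries, numbered by mouse, on the deposited scaling (left) and with miRNA size factors (right). The points lie along a diagonal on the left (Pearson r = 0.84) and much less so on the right (r = 0.38).

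Among 255 other mature miRNA rows with a mean of at least 100, those most like the 2 leading members over the 16 libraries were ranked by Pearson r of log2(normalised count + 1). The ranking is a description over 16 libraries, and the rows of a library share its miRNA content. For miR-126a-3p the 5 rows were miR-30e-5p (r = 0.97), miR-30a-5p (0.96), miR-146b-5p (0.96), miR-24-3p (0.95) and miR-30d-5p (0.95). miR-30e-5p stayed first when values were scaled to the miRNA total (r = 0.89), when genotype means were subtracted (r = 0.97), and with miRNA size factors (r = 0.88). Of the 5 rows, 3, 4 and 3 were again among the first 5 under these. miR-24-3p belongs to a cluster expressed in endothelium, and miR-146b-5p is known as a regulator of inflammatory signalling. The log2 differences of these 5 rows between genotypes ran from -0.18 for miR-30a-5p to -0.06 for miR-24-3p, and 0 of 5 passed an unadjusted p below 0.05 in limma, beside 4.0% of all tested features. These values moved with single libraries: without PS19 mouse 8, miR-30a-5p was at -0.013 and miR-30d-5p at -0.046. Without the same mouse, miR-146b-5p, miR-24-3p and miR-30e-5p turned above 0, to 0.12, 0.085 and 0.0033.

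The mature sequences of these rows are shown with the seed in capitals to set them beside that of miR-126a-3p (RefSeq, GRCm38.p6; 4 of the 5 were matched). miR-30e-5p and miR-30a-5p share their seed with each other, and 0 of the 4 share it with miR-126a-3p.
mmu-miR-30e-5p: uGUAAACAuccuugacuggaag
mmu-miR-30a-5p: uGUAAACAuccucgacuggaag
mmu-miR-146b-5p: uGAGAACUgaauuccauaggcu
mmu-miR-24-3p: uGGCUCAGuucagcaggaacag

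For miR-143-3p the 5 rows were miR-152-3p (r = 0.93), miR-221-5p (0.91), miR-30e-3p (0.89), let-7g-5p (0.89) and miR-340-5p (0.88). miR-152-3p stayed first when values were scaled to the miRNA total (r = 0.84), when genotype means were subtracted (r = 0.93) and with miRNA size factors (r = 0.79). Of the 5 rows, 3, 3 and 2 were again among the first 5 under these, and r for let-7g-5p and miR-340-5p was 0.48 and 0.42 with miRNA size factors. miR-152-3p belongs to the miR-148 family, and miR-221 is known in endothelium and smooth muscle. Their log2 differences were -0.35 (SE 0.28) for miR-152-3p, -0.42 (SE 0.30) for miR-221-5p, -0.16 (SE 0.28) for miR-30e-3p, -0.42 (SE 0.32) for let-7g-5p and -0.45 (SE 0.34) for miR-340-5p, and 0 of 5 had an unadjusted p below 0.05 in limma, beside 4.0% of all tested features. Without PS19 mouse 8 the difference was -0.23 for miR-152-3p, -0.019 for miR-30e-3p and -0.27 for miR-340-5p, and without WT mouse 3 that of let-7g-5p was -0.26. The 5 sequences below have 5 different seeds, in capitals.
mmu-miR-152-3p: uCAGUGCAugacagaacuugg
mmu-miR-221-5p: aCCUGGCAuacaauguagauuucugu
mmu-miR-30e-3p: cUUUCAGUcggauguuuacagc
mmu-let-7g-5p: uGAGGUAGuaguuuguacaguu
mmu-miR-340-5p: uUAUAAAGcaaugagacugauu

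Other miRNAs described in vessels were taken as lists. Of 18 endothelial or angiogenic rows, 15 were abundant enough to test, and 0 passed an unadjusted p below 0.05, beside 4.0% of all tested features. Their median log2 difference was -0.04 and 60% of them, 9 of 15, were below 0, beside -0.13 and 66.4% for all mature miRNA rows tested. At the ends of this list were miR-130a-3p, which acts in vessel growth, at -0.50 (SE 0.32) and miR-210-3p, which is known for its induction by low oxygen, at 0.43 (SE 0.38). For miR-130a-3p, which had at most 38 reads in a library, the value was -0.19 (SE 0.52) with the library letter as a term and -0.32 without PS19 mouse 6. For miR-210-3p it was 0.19 (SE 0.62) with the letter as a term (limma, unadjusted p = 0.763), 0.25 without PS19 mouse 3, 0.26 without WT mouse 7 and 0.28 without PS19 mouse 1. With miRNA size factors it was 0.54 (limma, unadjusted p = 0.0361, adjusted p = 0.9996). Of 8 mural or mesenchymal rows, 4 were tested, with a median of -0.16. Of these 4, miR-199a-3p, a miRNA of mesenchymal cells, passed an unadjusted p below 0.05. It ranged from 51.0 to 218 normalised counts in WT mice and from 62.6 to 185 in PS19 mice, and the groups overlapped. The means were 148 ± 52.5 and 93.9 ± 39.6 (SD, n = 8 per group). The log2 difference was -0.63 with an SE of 0.28 (limma, unadjusted p = 0.0358, adjusted p = 0.9998), 1 of 4 rows beside 2.14% of all tested features on the lower side. It was -0.66 with an SE of 0.47 with the library letter as a term (unadjusted p = 0.171). The unadjusted p was below 0.05 in 18 of 28 alternatives, and rose to between 0.0512 and 0.0777 when PS19 mouse 5, 6, 7 or 8 or WT mouse 1, 3, 4, 5 or 8 was left out. The other end of the list was miR-21a-5p, known in injury and fibrosis, at 0.12 (SE 0.31), which turned to -0.12 with the letter as a term.

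Markers of other cells were read beside the members, and their part in the values above was not tested. The blood markers miR-144-3p and miR-144-5p were at 0 in 12 and 11 of the 16 libraries, and miR-451a, the defining miRNA of red blood cells, ranged from 1.90 to 27.1 normalised counts in WT and from 5.69 to 40.1 in PS19 mice. miR-486a-5p and miR-486b-5p made up most of the red cell list, whose sum ran from 1325 to 2894 in WT and from 1470 to 3004 in PS19 mice. These 2 rows had nearly equal means over the 16 libraries, 975.60 and 975.64. Whether the same reads were counted in both, and so enter this sum more than once, was not tested. Of the 6 microglia and white blood cell rows, miR-142a-3p, miR-142a-5p and miR-223-3p had means too low to test. miR-155-5p, the 1 row of that list with an unadjusted p below 0.05 and outside the naming rule, was named after its values were seen and averaged 82.5 ± 51.6 normalised counts in PS19 and 44.3 ± 15.8 in WT mice (SD, n = 8 per group; log2 difference 0.78 with an SE of 0.30). Its unadjusted limma p was 0.0167 and its adjusted p 0.9998, 1 of 3 tested rows beside 1.86% of all tested features on the higher side. With the library letter as a term it was at 0.72 (unadjusted p = 0.157). The other 2 tested rows were miR-146a-5p at 0.36 (limma, unadjusted p = 0.294) and miR-150-5p at -0.17 (limma, unadjusted p = 0.466). The 6 neuron rows had a median log2 difference of -0.17 and 5 of 6 below 0, beside the median of -0.13 and the 66.4% of all mature miRNA rows tested. The 2 tested oligodendrocyte rows had a median of 0.30 and the 4 tested choroid plexus and ependyma rows a median of 0.55, and 0 of these 12 passed an unadjusted p below 0.05, beside 4.0% of all tested features. The choroid and ependyma sum varied widely, from 632 to 9569 in WT and from 359 to 14328 in PS19 mice. Its highest value was in PS19 mouse 3, the mouse that stood high for miR-145a-5p on the deposited scaling but not with miRNA size factors.

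**Figure D5:**
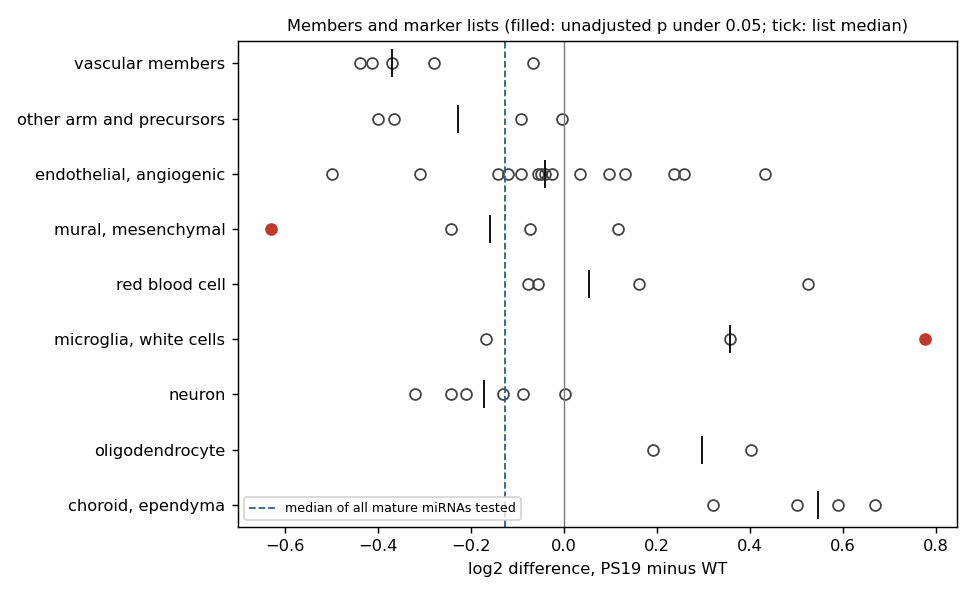
Log2 difference, PS19 minus WT (x axis), of each tested row of the vascular members and the marker lists in limma on the deposited scaling; open circles have an unadjusted p of 0.05 or more, filled circles below 0.05, ticks are list medians, and the dashed line is the median of all mature miRNAs tested (-0.13). The members lie from -0.44 to -0.07 (miR-126a-3p, the highest, turns above 0 with miRNA size factors), and the filled circles are miR-199a-3p and miR-155-5p.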

How the data were processed

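Small RNA was isolated from frozen prefrontal cortex (Norgen kit), made into libraries with the NEBNext small RNA kit and sequenced single-end. Per the labels and the study's methods, the authors aligned reads with STAR 2.5.3a within COMPSRA to mm10 and normalised with DESeq2 1.42.1; the deposited values are signal, counts divided by 1 size factor per library. The deposited columns of the authors' own comparison (mean, fold change, SE, statistic, p and adjusted p) were not used.

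Each library's values were whole multiples of the value of 1 read (tolerance 0.01 reads) for 100% of values, and reads were recovered from them. In 2 WT libraries (mice 4 and 6) that value was close to 1, so the multiples are weaker evidence there. The recovered depth of 13187096 to 23058568 reads limits the rows with few reads most. Replicates differed by more than sampling noise in every pair (chi-square per degree of freedom at least 43.5). None of the 5 members had a row identical to another. Genotypes were compared with limma 3.58.1 (trend) on log2(value + 1) over all 6024 features with a mean of at least 5, two-sided, with Benjamini-Hochberg adjustment and a threshold of 0.05. Ratios used exact permutation tests (numpy 2.4.6). edgeR 4.0.16 and DESeq2 1.42.0 on recovered reads, other scalings, filters, pseudocounts, a replicate block, the library code letter and leaving out each library were alternatives. On simulated data with 200 changed features, limma recovered 88% of changes of 2 and 27% of changes of 1 on the log2 scale at the adjusted threshold, with 7 false calls.

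The rows named were the members, their other arms and precursors, rows of the 2 vascular lists with an unadjusted p below 0.05 and the ends of those lists, and the 5 rows most correlated with each of 2 members. Rows of the other cell type marker lists were named outside this rule, after their values were seen. The members and lists were chosen with earlier results of these data known. Sex per mouse is not given by the labels. Strand use in counting is not given in the sources used here.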

Additional observations from a re-analysis of the deposited data

Results flagged for a closer look

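Of 26 sets of 8 values examined, 3 held a library whose gap to the others was wide for a set of that size, where chance gives about 1 in 20. miR-145a-5p was 961 normalised counts in PS19 mouse 3, and the next highest PS19 mouse was at 601. The same mouse was at 659.8 with miRNA size factors, below mouse 7 at 674.1. The second arm of miR-143, miR-143-5p, was 27.5 normalised counts in the same mouse, and the next was at 11.8 (18.9 and 13.4 with miRNA size factors). The ratio of miR-145a-5p to miR-145a-3p was 33.2 in WT mouse 4, and the next WT mouse was at 17.2. The explanation of these 3 values was not tested.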

How the results depend on the processing

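Under 28 alternatives, 0 of the 5 members reached an adjusted p below 0.05. For 4 of them the direction held in each alternative, with log2 differences from -0.73 to -0.31 for miR-143-3p, -0.73 to -0.26 for miR-145a-5p, -0.54 to -0.25 for miR-145a-3p and -0.59 to -0.15 for miR-126a-5p. Leaving out WT mouse 4 gave the -0.15 of miR-126a-5p, and leaving out PS19 mouse 7 or 8 gave -0.25 for miR-145a-3p. miR-126a-3p turned to 0.044 with miRNA size factors (chosen after seeing the data), with or without the replicate block, and ran from -0.26 to 0.12 when single libraries were left out. The number of features with an unadjusted p below 0.05 moved from 241 to 123 with scaling to the miRNA total, 147 with miRNA size factors, 136 with a mean of at least 20, 680 without a filter and 124 with the letter as a term. DESeq2 called 15 at the adjusted threshold. The ratio of the miR-145a arms turned to -0.39 among libraries with the letter G and ran from -0.089 to 0.21 with single libraries left out; the ratio of miR-143-3p to miR-145a-5p turned to 0.00397 and ran from -0.16 to 0.020. The causes were not tested.

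Equal replicate numbers in the 2 groups gave correlations of deviations from 0.0446 to 0.456, with a median of 0.189 against -0.028 for unequal numbers, over 0.1 in 6 of 8 pairs, and 4 of 16 libraries correlated best with their own number, so the numbers were not taken to pair the mice. With the replicate block, 419 features had an unadjusted p below 0.05, 233 of the 241 among them, and miR-143-3p had an unadjusted limma p of 0.0324 (adjusted 0.678), or 0.0942 with miRNA size factors as well. miR-221-5p had an unadjusted limma p of 0.0498 with the block, and 0 features passed the adjusted threshold.

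Among the other named rows, mir-126a turned to 0.018 with edgeR, 0.019 with the library total, 0.050 with the miRNA total and 0.11 with miRNA size factors, and mir-145a, miR-146b-5p and miR-24-3p to 0.020, 0.049 and 0.056 with miRNA size factors. miR-21a-5p turned to -0.12 with the letter. With single libraries left out, the range was -0.20 to 0.23 for mir-126a, -0.29 to 0.019 for mir-145a, -0.046 to 0.29 for miR-21a-5p, -0.32 to 0.00329 for miR-30e-5p, -0.29 to 0.12 for miR-146b-5p, -0.19 to 0.085 for miR-24-3p, -0.33 to -0.013 for miR-30a-5p, -0.32 to -0.046 for miR-30d-5p, -0.31 to -0.019 for miR-30e-3p, -0.59 to -0.26 for let-7g-5p, -0.63 to -0.27 for miR-340-5p, -0.61 to -0.32 for miR-130a-3p and 0.25 to 0.61 for miR-210-3p. With the letter as a term miR-30e-5p, miR-30a-5p, miR-146b-5p, miR-24-3p and miR-30d-5p were at -0.47, -0.56, -0.45, -0.19 and -0.44, miR-152-3p and miR-30e-3p at -0.65 and -0.29, and mir-126a, mir-143 and mir-145a at -0.46, -0.79 and -0.24. Depth limits miR-145a-3p, miR-126a-5p and miR-143-5p, which had at most 68, 161 and 33 reads in a library.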
